A study of Mus musculus with 4 samples.

Results

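Metallothioneins are small cysteine-rich proteins that bind zinc and copper. The genes described here are Mt1, Mt2 and Mt3, with Mtf1, Slc30a1, Slc30a10 and Slc39a10 beside them. They were chosen by name as the metallothionein and metal-transport genes of interest, with earlier results of these data known. All 7 were among the 36528 gene rows of the tables. The data are droplet single-cell RNA counts of dissociated cortex from 4 C57BL/6 mouse embryos at E16.5. The genotype labels give 2 mice as HET and 2 as COP1 KO, and the KO titles carry the abbreviation CKO. The sources used here do not say what HET stands for, which alleles the HET mice carry, or which promoter or cell type drives the deletion. No treatment is listed, so genotype was the only labelled difference. COP1 is the part of a ubiquitin ligase that picks its targets, among them the transcription factor c-JUN.

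As background, zinc that exceeds the needs of a cell is sensed by MTF1, the protein of Mtf1. MTF1 binds short DNA sequences called metal response elements and raises transcription of Mt1, Mt2 and Slc30a1. Mt1 and Mt2 are also induced by glucocorticoids and by cytokines that signal through STAT3, and in brain they are mainly genes of astrocytes and other glia. Mt3 is enriched in the nervous system and responds little to metals. Slc30a1 exports zinc across the plasma membrane, Slc39a10 imports it, and Slc30a10, although a member of the zinc exporter family, exports manganese. Radial glia are the neural stem cells of the embryonic cortex, and they give rise to neurons and later to astrocytes and oligodendrocyte precursors.

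The 4 libraries held 28049007 to 28988265 deposited counts, and 4313 to 5195 cells of each passed the filters, 18782 in all, with a median of 4505 to 5475 counts per cell. Of the distinct cell barcodes, 181 occurred in more than 1 library. The targeted gene, listed as Rfwd2, had 32.0 and 39.2 CPM in HET against 30.5 and 29.7 CPM in COP1 KO (CPM, counts scaled to a common total of 1000000 per library or per class). The log2 difference of -0.22 (SE 0.11) did not pass the test (edgeR adjusted p = 0.531). Counts of 3′ ends need not cover the deleted part, which is not given, so Rfwd2 does not check the genotype labels. Clustering without the 7 genes gave 26 clusters, and cells are called after a type, as "-like", only where markers of that type led. The 1279 radial-glia-like cells had a mean of 8322 CPM of Fabp7, 457 CPM of Pax6 and 1244 CPM of Hes5, against 755, 77.8 and 141 CPM over the other classes. The 332 oligodendrocyte-precursor-like cells had 1318 CPM of Olig1, 199 CPM of Pdgfra and 96.5 CPM of Sox10, against 4.91, 9.38 and 0.148 CPM elsewhere. Their summed radial glia markers, 15396 to 20508 CPM, were as high as in the radial-glia-like cells, at 16830 to 20276 CPM, so this class is not free of radial glia transcripts.

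The 3 metallothionein genes lie in a row on the plus strand of chromosome 8 of the mouse genome (GRCm38.p6, RefSeq annotation). Mt3 is at chr8:94152607-94154148, Mt2 at chr8:94172618-94173567 and Mt1 at chr8:94178883-94180327. Between Mt3 and Mt2 lie 18469 bases, and between Mt2 and Mt1 5315 bases. Mtf1 is at chr4:124802549-124849800, Slc30a1 at chr1:191906697-191913248 and Slc30a10 at chr1:185454848-185468762, all on the plus strand, and Slc39a10 is at chr1:46807544-46925776 on the minus strand. The last 300 bases of the Mtf1 transcript overlap those of 1110065P20Rik on the opposite strand. Whether strand was used in counting is not given, so Mtf1 counts are uncertain.

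Promoters are shown for the 3 metallothionein genes and for Slc30a10, because the results below turn on them and because metal response elements are the known route by which zinc raises metallothionein transcription. Each line gives the 250 bases upstream of the start site in the RefSeq promoter table (GRCm38.p6), 5′ to 3′ on the plus strand. Capitals mark matches to TGCACNC or TGCGCNC, the core of the metal response element, on either strand.
Mt1 (chr8:94178839-94179088): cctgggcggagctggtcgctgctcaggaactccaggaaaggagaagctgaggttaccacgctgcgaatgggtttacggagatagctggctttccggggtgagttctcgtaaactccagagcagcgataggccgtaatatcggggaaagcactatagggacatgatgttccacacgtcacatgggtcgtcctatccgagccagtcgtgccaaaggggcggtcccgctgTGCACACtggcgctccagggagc
Mt2 (chr8:94172368-94172617): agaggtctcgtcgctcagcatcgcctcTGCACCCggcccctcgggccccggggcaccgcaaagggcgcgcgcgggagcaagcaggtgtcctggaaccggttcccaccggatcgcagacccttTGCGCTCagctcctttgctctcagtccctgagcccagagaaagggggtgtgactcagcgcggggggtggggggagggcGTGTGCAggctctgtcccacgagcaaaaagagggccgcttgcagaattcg
Mt3 (chr8:94152357-94152606): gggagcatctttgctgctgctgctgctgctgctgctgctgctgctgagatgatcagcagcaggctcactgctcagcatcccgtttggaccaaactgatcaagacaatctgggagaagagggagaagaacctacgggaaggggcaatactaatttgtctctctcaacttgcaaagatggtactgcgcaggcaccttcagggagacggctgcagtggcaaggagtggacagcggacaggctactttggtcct
Slc30a10 (chr1:185454598-185454847): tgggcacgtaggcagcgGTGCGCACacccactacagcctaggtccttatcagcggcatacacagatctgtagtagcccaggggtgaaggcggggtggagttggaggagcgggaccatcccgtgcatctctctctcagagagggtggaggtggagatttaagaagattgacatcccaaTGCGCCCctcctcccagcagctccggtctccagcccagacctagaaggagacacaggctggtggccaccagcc

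Counted over the 300-base window that runs on to 50 bases past the start, Mt2 held 4 matches, at -223, -128, -50 and 5 from the start site. Mt1 held 3, at -23, 3 and 21, of which only the first is upstream and shown. The start site that the table lists for Mt1 lies past the annotated start of the gene, so the window reaches only a short way before that start. Slc30a10 held 3, of which the pair at -233 and -232 is 1 stretch read on both strands and the other is at -73. Slc30a1 held 2 and Mt3 held 1, at 28, so no capitals appear in the Mt3 line. Mtf1 and Slc39a10 held none. Among 32851 such windows of the genome, 25.7% held at least 1 match, 7.11% at least 2, 1.97% at least 3 and 0.517% at least 4. A match describes letters, not binding.

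Mt3 counts were concentrated in radial-glia-like cells and, at a lower level, in oligodendrocyte-precursor-like cells. Its level in the former was 2309 and 2290 CPM in HET against 2646 and 2313 CPM in COP1 KO, with a mean of 2389 ± 171 CPM (SD, n = 4). In oligodendrocyte-precursor-like cells it was 1231, 1180, 1118 and 1143 CPM in the same order (1168 ± 49.2 CPM). The radial-glia-like level was 2.05-fold higher, and the ranges did not overlap. The next of the 14 tested classes was the unnamed cluster 9, at 154 ± 17.4 CPM, 7.58-fold below the precursors. Excitatory-neuron-like cells, the most numerous class with 5673 cells, had 51.3, 54.7, 40.0 and 41.1 CPM. Microglia-like cells had 17.0 CPM on average from only 10 counts. Because the classes were made from the same cells, these levels are a description with no test.

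Mt2 had the same leading classes. Radial-glia-like cells had 268 and 221 CPM of Mt2 in HET against 404 and 355 CPM in COP1 KO, a mean of 312 ± 82.5 CPM. Oligodendrocyte-precursor-like cells had 187, 217, 136 and 147 CPM (172 ± 37.3 CPM). The radial-glia-like range lay above the precursor range in these 4 libraries, by 1.82-fold in the means. By genotype the means were 245 against 202 CPM in HET and 379 against 142 CPM in COP1 KO. Fibroblast-like and microglia-like cells, too few to test, followed at 106 and 93.0 CPM. Among the 14 tested classes the next was the unnamed cluster 13, 6.29-fold below the precursors, and the neuron-like classes were at 4.66 CPM or less.

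Over the 4 libraries together, Mt1 did not separate radial-glia-like cells from oligodendrocyte-precursor-like cells. It was at 428, 334, 554 and 481 CPM in the former (449 ± 92.4 CPM) and at 739, 486, 378 and 351 CPM in the latter (489 ± 177 CPM), with overlapping ranges. The precursors were the higher class in both HET libraries and the lower class in both COP1 KO libraries. From the radial-glia-like cells to cluster 13, the next of the 14 tested classes, the level dropped 17.0-fold. Cajal-Retzius-like cells, a class of early-born neurons, were lowest at 2.45 CPM. Radial-glia-like cells lay above excitatory-neuron-like cells without overlap for Mt1, Mt2 and Mt3, which was also true of 34.6% of 17240 genes.

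**Figure D1:**
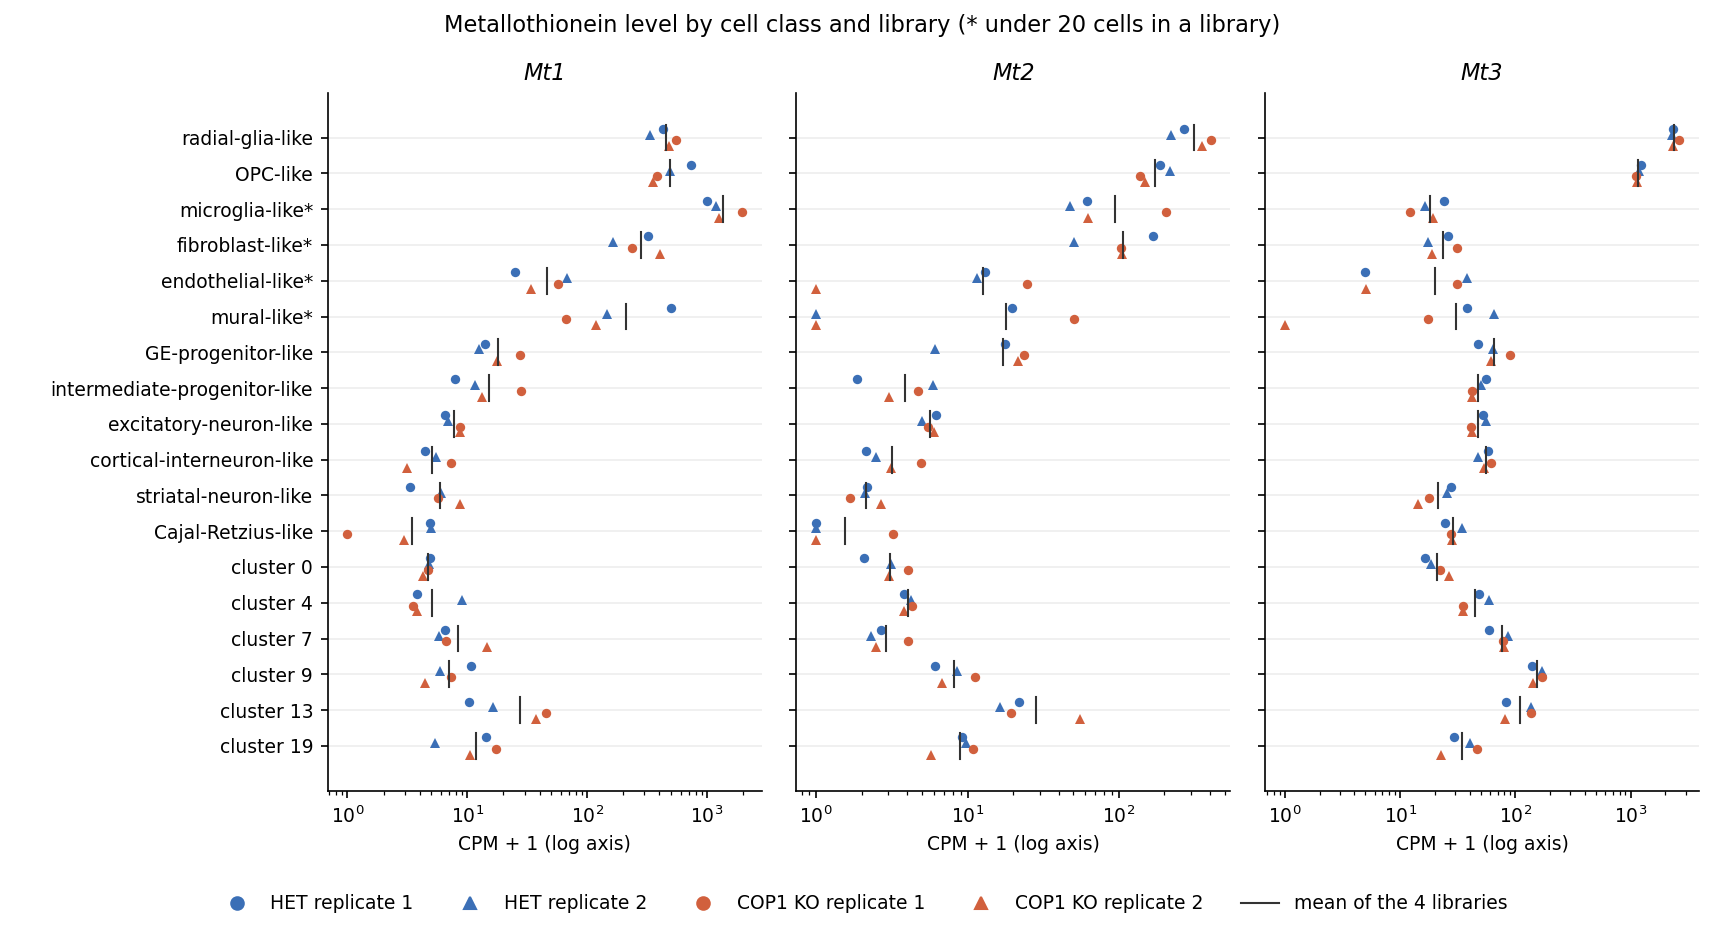
Level of Mt1, Mt2 and Mt3 by cell class, as CPM + 1 of the summed class on a log axis, with 1 point per library and a bar at the mean of 4. OPC stands for oligodendrocyte precursor, GE for ganglionic eminence, and the erythroid-like cells are not drawn. Radial-glia-like and oligodendrocyte-precursor-like cells lead for Mt2 and Mt3, at means of 312 and 172 CPM and of 2389 and 1168 CPM, while microglia-like cells stand highest for Mt1, at 1343 CPM.

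Microglia-like cells, the immune cells of the brain, had Mt1 transcripts but few of Mt2 or Mt3. With 16 to 28 cells per library they were too few for a test. Their Mt1 level was 992 and 1178 CPM in HET against 1953 and 1249 CPM in COP1 KO (1343 ± 421 CPM). Mt2 in the same cells was 61.0, 46.5, 203 and 61.2 CPM. The ratio of Mt1 to Mt2 counts was 16.3, 25.3, 9.61 and 20.4 in microglia-like cells. It was 1.60, 1.51, 1.37 and 1.35 in radial-glia-like cells, and 3.96, 2.24, 2.77 and 2.39 in oligodendrocyte-precursor-like cells. The 3 sets of ratios did not overlap, so the balance of the neighbouring genes Mt1 and Mt2 differed between these classes in the libraries measured. The microglia-like ratios rest on only 8, 6, 36 and 10 Mt2 counts. Ratios of fibroblast-like cells, at 1.91, 3.33, 2.29 and 3.86, overlapped those of the precursors. The ratio is compared only between classes, since 3′ counts of different genes are not on a common scale. Fibroblast-like cells (92 cells) had a mean of 280 CPM of Mt1 and 106 CPM of Mt2, and endothelial-like cells (63 cells) 44.8 CPM of Mt1.

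Radial-glia-like cells supplied most of the metallothionein counts of each library although they made up 6.14% to 7.30% of the cells. They held 58.9%, 59.5%, 57.4% and 54.6% of the Mt1 counts in HET 1, HET 2, COP1 KO 1 and COP1 KO 2. For Mt2 the shares were 72.2%, 74.2%, 75.5% and 71.8%, and for Mt3 73.5%, 74.3%, 73.9% and 69.4%. Oligodendrocyte-precursor-like cells held 15.2% of all Mt1, 10.4% of Mt2 and 9.86% of Mt3 counts. Their share of Mt3 was 5.93% and 5.21% in the HET libraries against 11.3% and 15.7% in the COP1 KO libraries. Their share of the cells was 0.792% and 0.858% against 2.23% and 3.02%. The 86 microglia-like cells held 832 of the 6931 Mt1 counts.

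**Figure D2:**
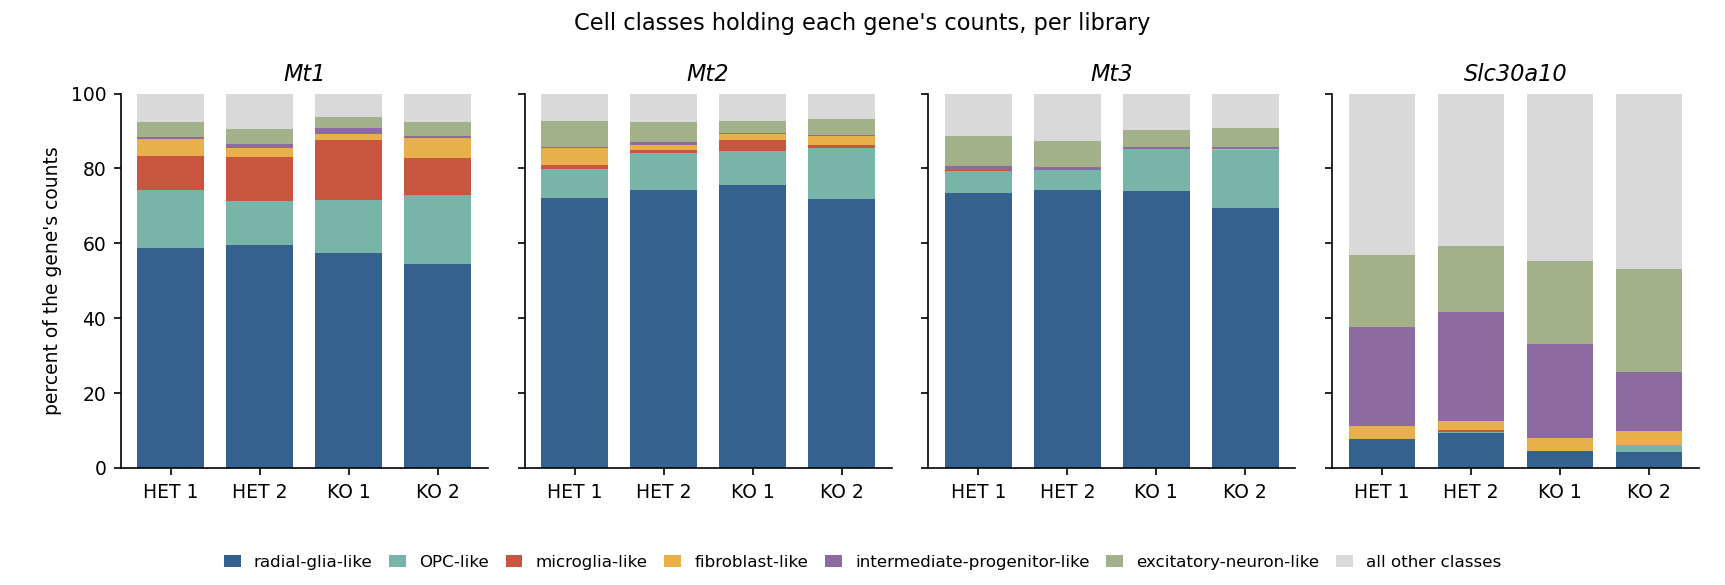
Percent of each library's counts of Mt1, Mt2, Mt3 and Slc30a10 that came from each cell class, stacked for HET and COP1 KO libraries (OPC, oligodendrocyte precursor). Radial-glia-like cells take the largest part of Mt1, Mt2 and Mt3, at 57.2%, 73.5% and 72.7% over all libraries, whereas they hold 6.73% of Slc30a10 counts.

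Among single radial-glia-like cells, Mt3 was found in most cells and Mt1 and Mt2 in fewer. The shares were taken after each cell was thinned to 2000 counts, with 2 shallower cells of COP1 KO 1 left out. Mt3 was counted in 84.6% and 84.6% of the HET cells and in 82.8% and 80.5% of the COP1 KO cells. Mt1 was counted in 44.8% (95% exact Clopper-Pearson interval 38.9% to 50.8%) and 37.9% (32.3% to 43.7%) of HET cells and in 53.8% (48.7% to 59.0%) and 51.5% (46.0% to 57.1%) of COP1 KO cells. Mt2 was counted in 32.3% (26.8% to 38.1%) and 25.6% (20.7% to 31.0%) of HET cells and in 41.4% (36.4% to 46.5%) and 34.5% (29.3% to 39.9%) of COP1 KO cells. The intervals cover counting error only. In excitatory-neuron-like cells, where free RNA could supply such counts, Mt1 was found in 0.839% to 1.27% of cells, Mt2 in 0.492% to 0.781% and Mt3 in 6.47% to 7.55%. Median depths before thinning were alike, 5271 to 6760 counts in radial-glia-like and 5382 to 7021 in excitatory-neuron-like cells.

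Mt1 and Mt2 tended to be counted in the same radial-glia-like cells. Both were found together in 19.7% and 14.7% of HET cells and in 30.5% and 27.1% of COP1 KO cells. The product of their separate shares was 14.5%, 9.70%, 22.3% and 17.8% in the same order, lower than the observed share in each library. All 3 metallothioneins were found in 19.4%, 14.0%, 28.6% and 25.3% of cells, and none of them in 11.1%, 10.6%, 9.55% and 12.5%.

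The radial-glia-like class consisted of 785 cells in cluster 11 and 494 in cluster 16, which had the higher levels of the dividing-cell genes Top2a (978 against 74.4 CPM) and Mki67 (253 against 26.5 CPM). Mt3 was at 2661, 2792, 2861 and 2490 CPM in cluster 11 (2701 ± 163 CPM) and at 2026, 1798, 2344 and 2134 CPM in cluster 16 (2076 ± 227 CPM). The ranges did not overlap, with the dividing cluster lower in these 4 libraries. Mt1 had means of 470 and 429 CPM and Mt2 of 317 and 308 CPM in clusters 11 and 16.

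The sensor Mtf1 showed no such pattern. Its mean level over the classes ran from 10.5 CPM in fibroblast-like cells to 41.5 CPM in intermediate-progenitor-like cells, with 34.7 ± 3.40 CPM in radial-glia-like cells. The exporter Slc30a1 was highest in endothelial-like cells, the cells that line blood vessels, at 128, 109, 104 and 85.7 CPM (107 ± 17.4 CPM). Every other class had a mean of 12.4 CPM or less, and radial-glia-like cells had 4.25 CPM. The importer Slc39a10 was also highest in endothelial-like cells, at 192, 201, 185 and 253 CPM (208 ± 31.0 CPM), followed by fibroblast-like cells at 53.4 CPM. Radial-glia-like cells had 40.1 ± 0.81 CPM of Slc39a10. These vessel cells numbered 63, so their values are levels only.

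Slc30a10, the manganese exporter, had its highest neural level in intermediate-progenitor-like cells, named after the offspring of radial glia that make excitatory neurons. There it was at 131 and 150 CPM in HET against 110 and 78.2 CPM in COP1 KO (117 ± 30.8 CPM). Mural-like cells of the vessel wall (42 cells) had 134 ± 48.6 CPM and fibroblast-like cells 88.6 CPM. The unnamed clusters 19 and 4 had 55.9 and 55.7 CPM. Cluster 19 scored highest for the intermediate progenitor markers, but dividing-cell genes such as Top2a were among its leading genes. Radial-glia-like cells had 22.6, 25.3, 9.84 and 8.94 CPM (16.7 ± 8.47 CPM), 3.34-fold below cluster 4 without overlap. Excitatory-neuron-like cells had 12.1 CPM and oligodendrocyte-precursor-like cells 3.46 CPM. Intermediate-progenitor-like cells held 24.5% of the Slc30a10 counts and excitatory-neuron-like cells 21.2%.

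**Figure D3:**
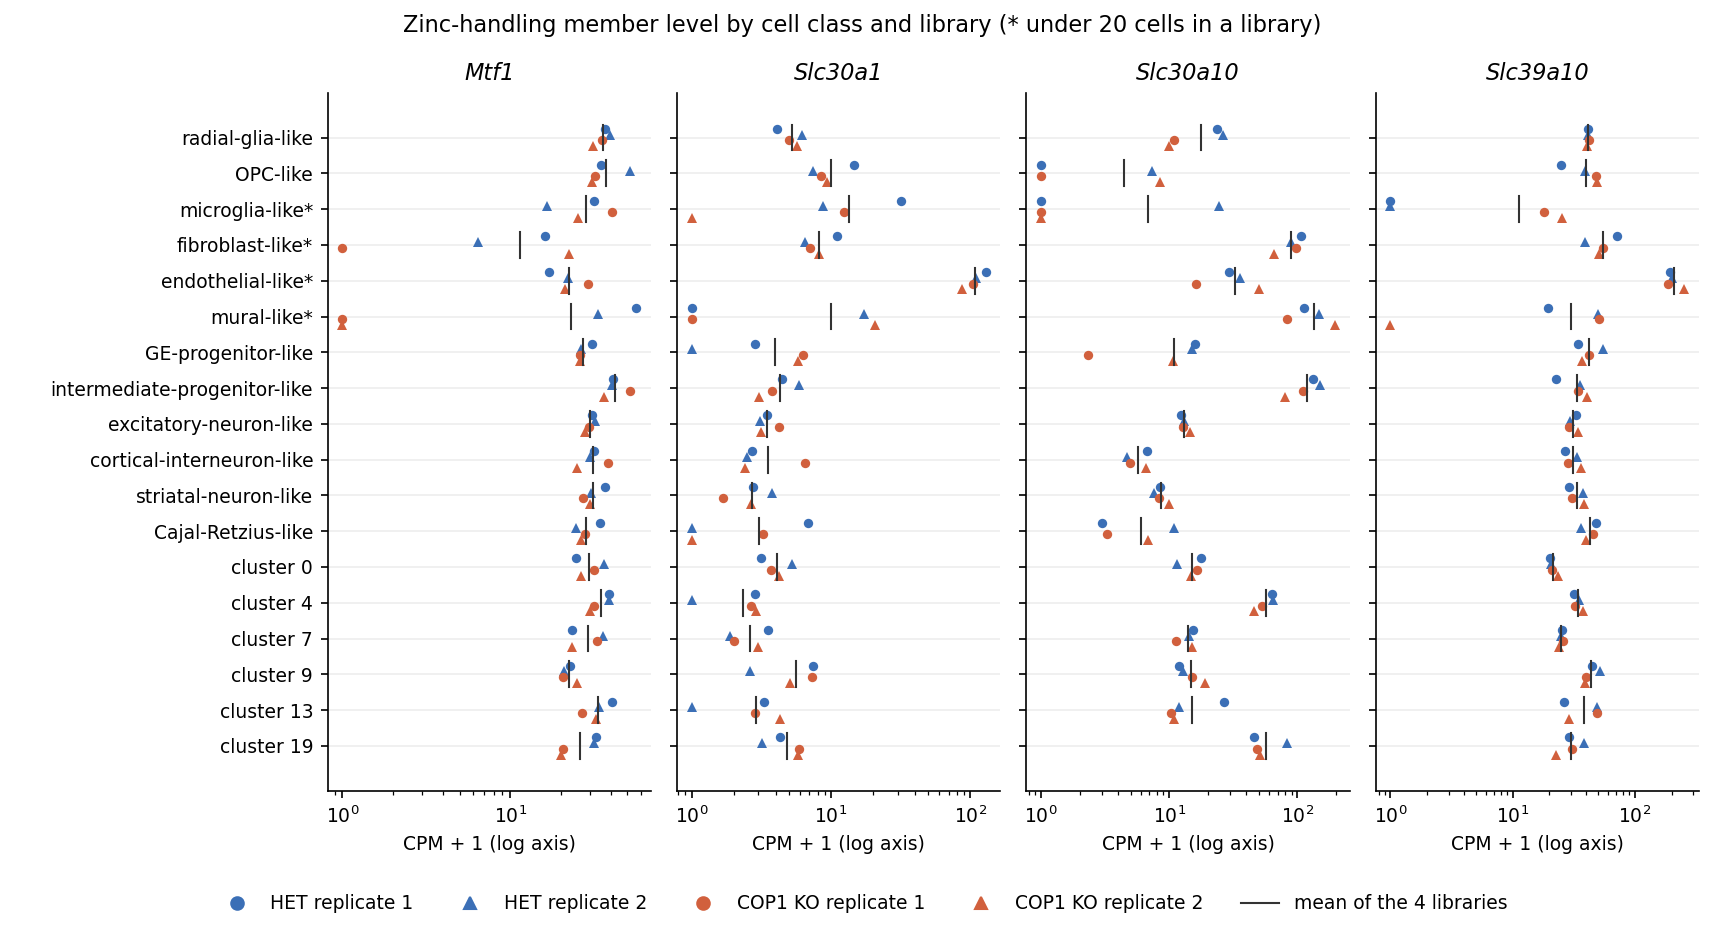
Level of Mtf1, Slc30a1, Slc30a10 and Slc39a10 by cell class, as CPM + 1 of the summed class on a log axis, with 1 point per library and a bar at the mean of 4 (OPC, oligodendrocyte precursor, and GE, ganglionic eminence). Slc30a1 and Slc39a10 peak in endothelial-like cells at 107 and 208 CPM, Slc30a10 in mural-like and intermediate-progenitor-like cells at 134 and 117 CPM, and Mtf1 has no class mean above 41.5 CPM.

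Across the 8 named classes with enough cells, the genes whose log2 levels were most like those of each member were found among 9792 genes by Pearson's correlation. These points share libraries and are few, so r is a description. The gene most like Mt3 was Mt2 (r = 0.989), followed by Prr5l, A930005H10Rik, Aldh1l1 and Mfn1. Mt1 was most like Syde1 (r = 0.997), Notch3, Aldh1l1 and Tagln2, with Mt2 at rank 24 (r = 0.986). Mt2 was most like Prr5l (r = 0.996), Tcf7l1, Mlc1, Cdc42ep1 and Anxa2. Aldh1l1 is a folate enzyme used as an astrocyte marker, Notch3 a Notch receptor of progenitors and mural cells, and Mlc1 an astrocyte membrane protein. Slc30a10 was most like Cbfa2t2 (r = 0.983), Cul1, Ulk4, Acly and Gm27197. Mtf1 was most like Fam21, Fahd2a, Gsap and Fam149b, and Slc39a10 like Cdyl, Ddx59, Puf60, Rfc1 and Mars. Slc30a1 did not reach a mean of 20 CPM, which the rule needs, in any of these 8 classes.

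Over all cells of a library, Mt1 and Mt2 lay higher in the COP1 KO libraries, but no member passed edgeR's quasi-likelihood test with Benjamini-Hochberg adjustment over 16977 genes. That test called 0.0118% of these genes, and at an unadjusted p under 0.05 it had 4 of the 7 members and 1788 of all genes tested. Mt1 was at 51.9 and 48.1 CPM in HET and at 81.4 and 74.2 CPM in COP1 KO, a log2 difference of 0.66 (SE 0.080, edgeR adjusted p = 0.117). Mt2 was at 26.5 and 25.6 CPM against 45.1 and 41.7 CPM, a log2 difference of 0.76 (SE 0.081, edgeR adjusted p = 0.101). Neither pair of groups overlapped, as for 44.2% of 20056 genes. Mt3 was at 225 and 264 CPM against 302 and 281 CPM (log2 0.28, edgeR adjusted p = 0.438). Slc30a10 was at 21.1 and 23.4 CPM against 17.8 and 17.3 CPM (log2 -0.32, edgeR adjusted p = 0.384). Mtf1, Slc39a10 and Slc30a1 had log2 differences of -0.09, 0.07 and 0.13.

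In such whole-library sums, fewer cells of a type and less RNA per cell cannot be told apart. Summed markers of some classes moved with Mt1 and Mt2. The summed oligodendrocyte precursor markers were at 49.8 and 57.3 CPM in HET and 105 and 127 CPM in COP1 KO, with 9 of 10 higher in COP1 KO. Summed microglia markers were at 128 and 157 CPM against 191 and 196 CPM, with 14 of 14 higher. Radial glia markers were at 2178 and 2645 CPM against 2740 and 2732 CPM, with 8 of 13 higher. Astrocyte markers overlapped, at 373 and 458 CPM against 436 and 506 CPM, with 10 of 12 higher. Endothelial markers overlapped as well, with 9 of 10 higher. Excitatory neuron markers were lower, at 3210 and 3241 CPM against 3184 and 2919 CPM, with 1 of 9 higher. With each library's classes weighted to the same mean makeup, the log2 ratio of Mt1 went from 0.64 to 0.24 and the genotypes overlapped. For Mt2 the ratio went from 0.74 to 0.46 without overlap, for Mt3 from 0.25 to 0.05 and for Slc30a10 from -0.34 to -0.29. DESeq2 called Mt1 and Mt2 (adjusted p = 1.1e-05 and 3.3e-06) among 1.31% of 13289 genes. The edgeR test called both when either COP1 KO library was left out, and neither when either HET library was left out. Such fits leave 1 mouse in a group, and the number of all genes called changed with the library left out as well.

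Within radial-glia-like cells Mt2 rose and Slc30a10 fell in the COP1 KO libraries. These were 2 of 7 members, against 3.05% of 11607 genes called in this class (2.15% higher and 0.905% lower in COP1 KO). The members were chosen with earlier results of these data known, so setting these shares side by side is a description only. Mt2, at 268 and 221 CPM in HET and 404 and 355 CPM in COP1 KO, rose by a log2 change of 0.68 (SE 0.11), with an edgeR adjusted p of 0.0106. Slc30a10, at 22.6 and 25.3 CPM in HET and 9.84 and 8.94 CPM in COP1 KO, fell by 1.30 (log2, SE 0.25), with an edgeR adjusted p of 0.0213. The groups did not overlap for either gene, as for 44.0% of 13999 genes in this class. The Slc30a10 value rests on 44, 58, 22 and 21 counts.

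Mt1 and Mt3 in these cells did not pass. Mt1, at 428 and 334 CPM against 554 and 481 CPM, had a log2 difference of 0.49 (SE 0.12, edgeR adjusted p = 0.0771), in the direction of Mt2. Mt3, at 2309 and 2290 CPM against 2646 and 2313 CPM, had a log2 difference of 0.15 (SE 0.083, edgeR adjusted p = 0.439). COP1 KO 1 alone stood apart, while COP1 KO 2 lay close to HET 1. Mtf1, Slc39a10 and Slc30a1 had log2 differences of -0.16, 0.05 and 0.09 (edgeR adjusted p = 0.755, 0.931 and 0.961). The Slc30a10 call was lost with DESeq2 (adjusted p = 0.307), with a sex term (edgeR adjusted p = 0.069) and in thinned cells (edgeR adjusted p = 0.148), and the Mt2 call at a coarser clustering (edgeR adjusted p = 0.068). Without HET 2 both calls were lost, without HET 1 that of Slc30a10 was lost, and without COP1 KO 2 Mt1 and Mt3 were called as well. Such fits leave 1 mouse in a group, and the number of all genes called changed with the library left out as well.

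**Figure D4:**
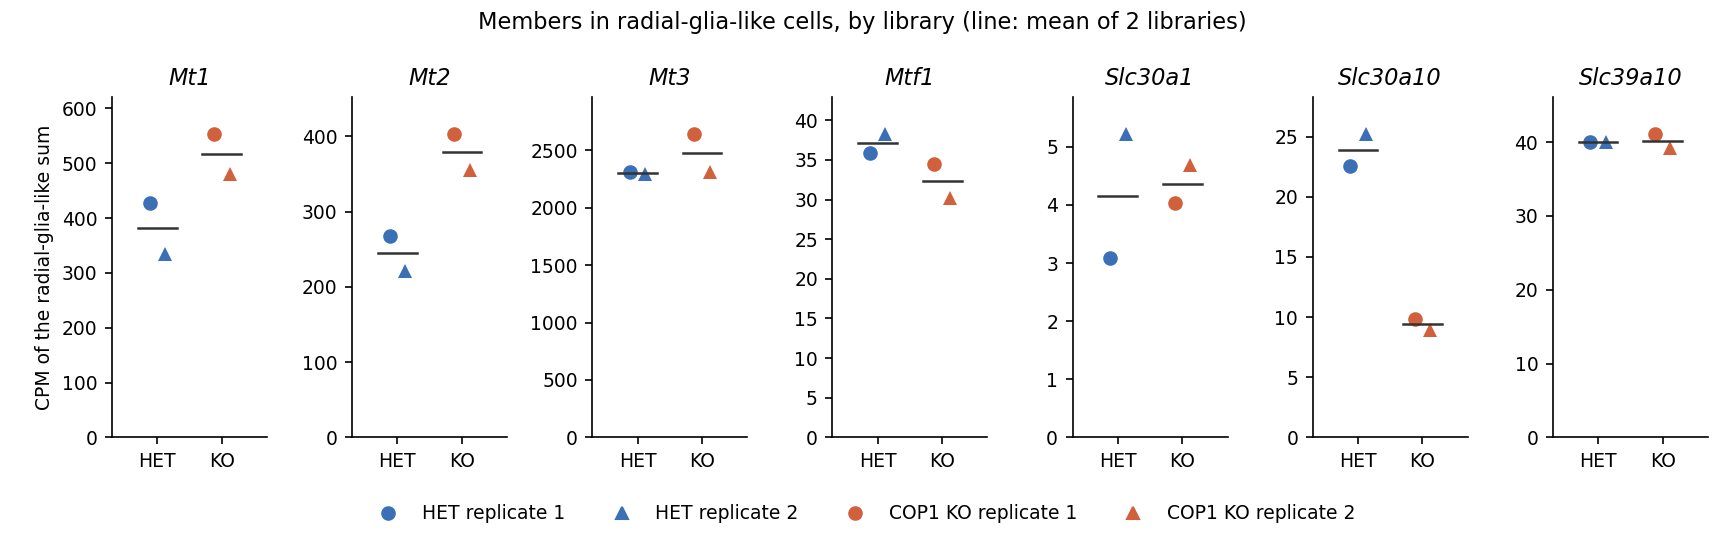
The 7 members in radial-glia-like cells, in CPM of the summed class, with 1 point per library by genotype and a line at the mean of each pair, each panel on its own axis from 0. Mt2 is at 268 and 221 CPM in HET against 404 and 355 CPM in COP1 KO, and Slc30a10 at 22.6 and 25.3 CPM against 9.84 and 8.94 CPM.

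Other markers differed between the genotypes in the same sums. Of 13 radial glia markers Vim rose (log2 0.44), and Fabp7, Gas1, Hes1 and Pax6 fell (log2 -0.41, -0.59, -0.55 and -0.73). Of 12 astrocyte markers 3 rose, among them Gfap, the astrocyte filament gene, at 13.3 and 16.55 CPM against 110 and 135 CPM (log2 3.06), and Aldoc fell. Their summed level was 1592 and 1970 CPM in HET and 1714 and 1852 CPM in COP1 KO, with Gjb6 at 0. Summed oligodendrocyte precursor markers were at 46.7 and 33.5 CPM against 96.6 and 132 CPM, with Gpr17 at 0, and Olig1, Olig2 and C1ql1 rose. Summed intermediate progenitor markers, of the class with the higher Slc30a10 level, were at 1322 and 1408 CPM against 1175 and 1143 CPM, with 3 of 10 higher in COP1 KO. Neurog1 and Neurog2 fell (log2 -2.75 and -0.72), and Hes6 of the same list rose (log2 0.41). Summed ganglionic eminence progenitor markers, which include genes of dividing cells, were at 2007 and 1865 CPM against 1424 and 1470 CPM, with 4 of 10 higher, and Hmgb2 and Top2a fell (log2 -0.77 and -0.39). Dlx5, of that list and the interneuron list, rose (log2 1.61), as did Mef2c of the excitatory neuron list (log2 1.16) and Rgs5 of the mural list (log2 2.28). The part of these markers in the Mt2 and Slc30a10 results was not tested. Microglia markers summed to 14.9 and 24.4 CPM against 15.7 and 20.4 CPM, with 5 of 14 higher in COP1 KO and Ctss at 0. Erythroid markers stood at 2400 CPM in COP1 KO 1 and at 152 to 179 CPM in the other libraries, and choroid plexus markers at 223 CPM in COP1 KO 2 and 41.2 to 55.4 CPM in the others. Without the cells that had over 1% of counts from Ttr or from hemoglobin genes, Mt2 kept a log2 change of 0.68 (edgeR adjusted p = 0.00901) and Slc30a10 one of -1.40 (0.0168).

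For Slc30a10 the thinned shares were lower in the COP1 KO libraries, although the same thinned cells, when summed, did not give a call. It was counted in 3.94% (1.98% to 6.94%) and 4.78% (2.64% to 7.89%) of HET cells and in 1.33% (0.432% to 3.07%) and 0.915% (0.189% to 2.65%) of COP1 KO cells. In excitatory-neuron-like cells the share was 2.21% to 2.55%, so the COP1 KO shares were not above the level of that class. Shares of the genotypes did not overlap for 5 of the 7 members, higher in COP1 KO for Mt1 and Mt2 and lower for Mt3, Slc30a1 and Slc30a10. Over 11118 genes with a mean share of at least 1% of cells, 40.6% did not overlap (16.8% higher and 23.9% lower). Slc30a1, found in 1 cell per library, was under that limit. Its shares differed only through the number of cells, 279 and 293 in HET against 377 and 328 in COP1 KO. The smallest two-sided p of an exact permutation over 4 libraries is 0.33, so no such test could pass. For Mt3 the share was lower in COP1 KO while the level was not.

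Within each radial-glia-like cluster Slc30a10 was also lower. Cluster 11 had 16.2 and 29.9 CPM in HET and 13.8 and 11.0 CPM in COP1 KO, and the dividing cluster 16 had 27.7 and 20.7 CPM against 4.30 and 6.86 CPM. In cluster 11 alone the Slc30a10 difference did not pass (log2 -0.88, edgeR adjusted p = 0.345), while Mt1 and Mt2 did (edgeR adjusted p = 0.0304 and 0.0131). Of all 10290 genes tested there, 169 were called higher in COP1 KO and 70 lower. In cluster 16 alone both Slc30a10 (log2 -2.02, edgeR adjusted p = 0.0202) and Mt2 (log2 0.79, edgeR adjusted p = 0.0124) passed. Both clusters together held 22 and 21 Slc30a10 counts in the COP1 KO libraries, so the values of each cluster rest on fewer. Of all 9859 genes tested there, 161 were called higher in COP1 KO and 69 lower.

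In oligodendrocyte-precursor-like cells the metallothioneins lay lower in the COP1 KO libraries, and none passed the test. Mt1 was at 739 and 486 CPM in HET and 378 and 351 CPM in COP1 KO, a log2 difference of -0.80 (SE 0.25, edgeR adjusted p = 0.322). Mt2 was at 187 and 217 CPM against 136 and 147 CPM, a log2 difference of -0.54 (SE 0.19, edgeR adjusted p = 0.384). Mt3 had a log2 difference of -0.13 (edgeR adjusted p = 0.863). The test called 0.147% of 8172 genes in this class, and 40.5% of 12049 genes did not overlap between the genotypes. Choroid plexus markers summed to 62140 and 38.4 CPM in HET and 34.7 and 10438 CPM in COP1 KO in these 36 to 143 cells, led by 4 cells of HET 1 and 3 of COP1 KO 2. Summed fibroblast markers were at 146 and 118 CPM in HET against 13.6 and 26.1 CPM in COP1 KO, with 0 of 9 higher in COP1 KO and Foxc1 at 0. Summed ganglionic eminence progenitor markers were at 699 and 1077 CPM against 1566 and 1591 CPM, with 6 of 10 higher. Intermediate progenitor markers were higher too, at 370 and 432 CPM against 603 and 444 CPM, with 7 of 10 higher. Lower without overlap were the summed radial glia, oligodendrocyte precursor, interneuron, striatal neuron, endothelial and mural markers. Single markers did not all follow these sums. Higher in COP1 KO were 8 of 13 radial glia, 4 of 9 mural, 3 of 13 striatal neuron and 2 of 10 endothelial markers, with 4 endothelial markers at 0. Interneuron markers were at 434 and 754 CPM against 338 and 336 CPM, with 1 of 12 higher. Precursor markers were at 2432 and 2685 CPM against 2409 and 2325 CPM, with 3 of 10 higher. The part of these markers in the Mt1 and Mt2 differences was not tested. Without cells high in Ttr or hemoglobin the Mt1 difference was -0.74 (edgeR adjusted p = 0.229). Without HET 2, which left 1 HET mouse, the Mt1 difference was -1.08 on the log2 scale. With all 4 libraries and no filter on low counts, 1 of the 7 members was called lower in COP1 KO. Of all 17828 genes tested in that setting, 128 were called higher and 222 lower.

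Of the 98 combinations of 7 members and 14 classes, 70 passed the filter on low counts and 2 were called, the 2 in radial-glia-like cells. Over all genes and classes the share called was 0.336%. Mt1 differences were above 0 in 6 of 9 classes tested, Mt2 in 5 of 6 and Mt3 in 8 of 14, and a class that failed the filter gave no value. The Mt1 difference was 1.72 on the log2 scale in cluster 13 (9.27 and 15.3 CPM against 44.4 and 36.4 CPM, edgeR adjusted p = 0.199) and 1.19 in intermediate-progenitor-like cells (6.94 and 10.7 CPM against 27.0 and 12.2 CPM, edgeR adjusted p = 0.422). In excitatory-neuron-like cells Mt3 was at 51.3 and 54.7 CPM against 40.0 and 41.1 CPM (log2 -0.36, SE 0.081, edgeR adjusted p = 0.326). Slc30a10 in intermediate-progenitor-like cells had a log2 difference of -0.54 (SE 0.17, edgeR adjusted p = 0.305). None of these passed.

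**Figure D5:**
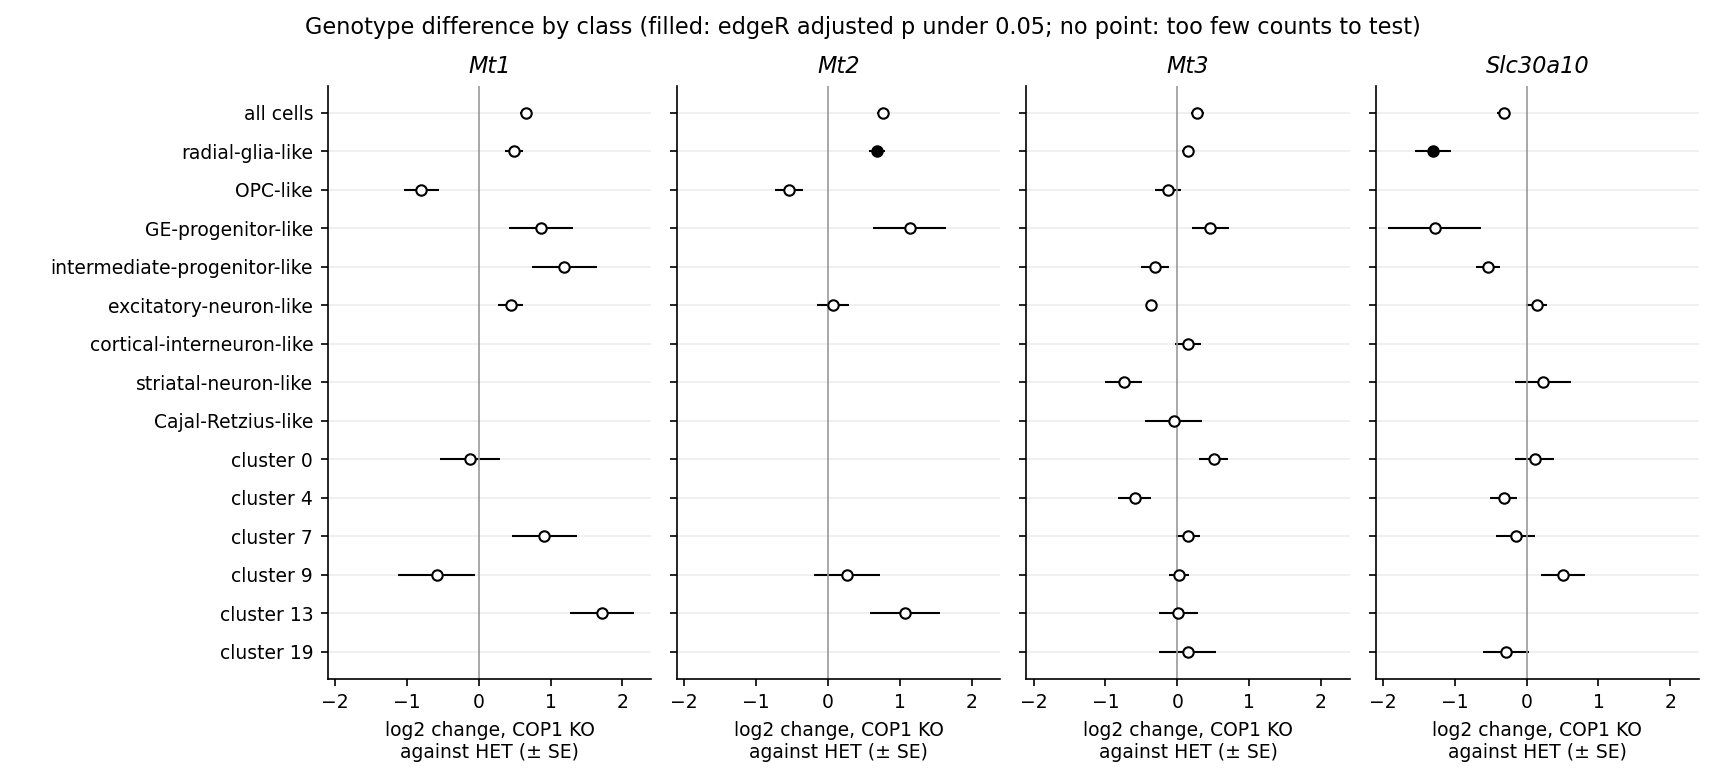
Log2 difference, COP1 KO over HET, of Mt1, Mt2, Mt3 and Slc30a10 over all cells and in each tested class, with the SE as a line and no point where counts were too few to test. The filled points, Mt2 (0.68) and Slc30a10 (-1.30) in radial-glia-like cells, passed the test.

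Whether a genotype difference itself differed between classes was tested with an interaction of class and genotype, blocked by library. With radial-glia-like cells set against excitatory-neuron-like cells, 2 of 7 members passed, against 2.17% of 14122 genes. For Mt3 the difference between COP1 KO and HET was higher in radial-glia-like cells by 0.51 (log2, SE 0.082), with an edgeR adjusted p of 0.00027. Neither of its differences passed within a class (log2 0.15 and -0.36). For Slc30a10 it was lower in radial-glia-like cells by 1.44 (log2 -1.44, SE 0.28, edgeR adjusted p = 0.0030). The term for Mt2 was 0.61 (edgeR adjusted p = 0.208) and for Mt1 0.04 (edgeR adjusted p = 0.975). The Mt3 call was lost with the members kept among the genes for clustering (0.26, edgeR adjusted p = 0.204) and at a coarser clustering (0.30, edgeR adjusted p = 0.119), and the Slc30a10 call without COP1 KO 2 (edgeR adjusted p = 0.136).

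Between radial-glia-like and oligodendrocyte-precursor-like cells, a comparison added after the data were seen, 1 of 7 members passed, against 0.307% of 11712 genes. For Mt1 the genotype difference was higher in radial-glia-like cells by 1.22 (log2, SE 0.19), with an edgeR adjusted p of 0.0162, with a value above 0 in radial-glia-like cells and below 0 in the precursors. The term for Mt2 was 1.19 (SE 0.22, edgeR adjusted p = 0.0534) and for Mt3 0.24 (edgeR adjusted p = 0.677). Mt1 was not called without COP1 KO 1 (edgeR adjusted p = 0.713) or without COP1 KO 2 (edgeR adjusted p = 0.379).

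The other zinc transporters and metallothioneins, 22 genes, gave no calls. Mt4 had 2 counts and Slc30a2 none. In radial-glia-like cells 14 were tested, 4 with a value above 0 and 10 below, with a median log2 difference of -0.05 against -0.00 over all genes. Over all cells 17 were tested, 6 above 0 and 11 below. In levels, Slc39a12, an importer, was at 5.43 CPM in radial-glia-like and 0.0255 CPM in excitatory-neuron-like cells, and Slc39a1, also an importer, at 50.4 and 11.0 CPM. Slc30a5, which loads zinc into the secretory pathway, was at 40.5 and 20.5 CPM. Lower in radial-glia-like cells were Slc30a4, Slc30a8, Slc39a2, Slc39a3, Slc39a5, Slc39a6, Slc39a11, Slc39a13 and Slc39a14, of which Slc30a8 and Slc39a5 had 6 counts each. Slc39a3 was at 28.5 and 47.5 CPM and Slc39a6 at 94.0 and 124 CPM. Among the 14 tested classes Slc39a1 was highest in oligodendrocyte-precursor-like cells, at 70.7 CPM.

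Other lists tied to metallothionein regulation were counted in the same radial-glia-like sums. They too were chosen with earlier results of these data known, so their counts are a description only. Of the gp130 and STAT3 list, 7 of 9 genes were tested, all 7 lay above 0, with a median of 0.62 against -0.00 over all genes, and 2 were called, beside the 2.15% of all genes called higher in this class. In excitatory-neuron-like cells 1 of 5 tested lay above 0 (median -0.30), and in oligodendrocyte-precursor-like cells 1 of 4 (median -0.18), with none called. The 2 called in radial-glia-like cells were Cebpd, a transcription factor gene of the cytokine response, at 24.1 and 21.3 CPM against 46.5 and 49.8 CPM (log2 1.13, SE 0.17, edgeR adjusted p = 0.00743), and Gfap (log2 3.06, SE 0.17, edgeR adjusted p = 3.0e-05). None was called of the copper (8 of 10 tested above 0), iron (4 of 7), glucocorticoid-responsive (5 of 8) and NRF2 oxidative stress (7 of 9) lists. Of the dissociation stress list, with 3 of 9 above 0, Jun fell, at 1617 and 1514 CPM in HET and 858 and 747 CPM in COP1 KO (log2 -0.92, SE 0.093, edgeR adjusted p = 0.000739).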

How the data were processed

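Per the labels' protocols, E16.5 cortex was dissociated with papain and made into 10x Chromium 3′ v2 libraries, with a HiSeq4000 lane for each. GSNAP and GRCm38 (mm10) are named in the submitters' processing notes. The deposited values are raw counts per gene and barcode. The sources used here do not give the counter, its annotation, use of strand or collapsing of molecular identifiers.

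Of rows with identical counts, 40 copies (1.33% of counts), none of a member, were set aside. Rows with only a number for a name (3065 rows, 1.69% of counts) were kept, and were left out of the likeness comparison only. Of 19237 barcodes, 222 with under 500 genes, 1 with over 10% mitochondrial counts and 232 doublets (1.22%, score over 0.25, since the automatic threshold marked 12) were removed. Clustering used 2000 variable genes without the members, 30 components, 15 neighbours and Leiden resolution 1 (scanpy 1.11.5, leidenalg 0.10.2, Python 3.11.15). A cluster was named from its markers with a mean score of at least 0.5, a margin of 0.3 and 3 markers in at least 10% of cells. Clusters led by another class's markers (0, 4, 19) or below these limits (7, 9, 13) kept numbers.

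Counts were summed per library, and per class where every library had at least 20 cells. They were tested with edgeR 4.0.16 (quasi-likelihood, TMM, filterByExpr, Benjamini-Hochberg, threshold 0.05) in R 4.3.3, with DESeq2 1.42.0 as an alternative. SE is the log2 change divided by the root of F. The test was checked on simulated counts. Each library is 1 mouse per the series' design text, with no litter or batch given. Likeness used log2(CPM + 10) and the top 5 genes, of which some are not reported here. All members are named, and of each list up to 4 called genes, with other zinc genes named for their counts or levels only. The members and lists were chosen with earlier results of these data known. Alternatives were other scaling, filters, doublets, clustering, thinning, a sex term, left-out libraries and left-out Ttr or hemoglobin cells. The sex term split the libraries by Xist counts above or below the median, a split that Y-linked gene counts matched.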

Additional observations from a re-analysis of the deposited data

Results flagged for a closer look

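In each of 3 results the genotype difference itself differed between cell classes by a class-by-genotype test. For Mt3 it was 0.51 higher on the log2 scale in radial-glia-like than in excitatory-neuron-like cells (edgeR adjusted p = 0.00027). For Slc30a10 it was -1.44 for the same classes (edgeR adjusted p = 0.0030). For Mt1 it was 1.22 higher in radial-glia-like than in oligodendrocyte-precursor-like cells (edgeR adjusted p = 0.0162), a comparison added after the data were seen. These classes differed in cell number, with 332 precursors in all, and the part of class makeup in these values was not tested.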

How the results depend on the processing

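No paired analysis was possible because the labels give no replicate numbers. Depth limited Slc30a1, Slc30a10 and the classes with few cells. Counts of members were compared with their values under each alternative, and 43 stayed within 1.5 times while 21 did not. No member was called in whole libraries, but 2 were with DESeq2, and 0 to 2 with 1 library left out. Within classes 2 calls became 7 with no filter, 1 with DESeq2, 1 at resolution 0.5 and 1 to 6 with 1 library left out. For the interaction of radial-glia-like against excitatory-neuron-like cells 2 calls became 1 with the members kept in clustering, 1 at resolution 0.5 and 1 to 2 with 1 library left out. For that against oligodendrocyte-precursor-like cells 1 call became 2 with no filter, 2 with no doublets removed, 2 without cells high in Ttr or hemoglobin and 0 to 2 with 1 library left out. At resolution 0.5 all 332 precursors joined the radial-glia-like class, so that comparison could not be run. The members with non-overlapping shares then numbered 3 in place of 5, and those highest in radial-glia-like cells 4 in place of 2.

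Mt1 in radial-glia-like cells was called with no filter (edgeR adjusted p = 5.9e-06), a sex term (0.0385) and thinned cells (0.0411). Sign changes were seen in 11 values, none of them called. In whole libraries these were Mtf1 (-0.20 to 0.0081 with 1 library left out, above 0 without COP1 KO 2) and Slc30a1 (-0.16 to 0.37, below 0 without COP1 KO 1). In radial-glia-like cells they were Mt3 at resolution 0.5 (-0.00017), Slc30a1 (-0.21 to 0.54, below 0 without HET 1), and Slc39a10 (-0.0097 to 0.11, below 0 without COP1 KO 1, and -0.25 in thinned cells). In oligodendrocyte-precursor-like cells Mt3 turned without HET 1 (0.0010). The Mt1 term against excitatory-neuron-like cells ran from -0.18 without HET 2 to 0.28 without HET 1, and was below 0 also without COP1 KO 1 (-0.064), with the members kept in clustering (-0.091) and at resolution 0.5 (-0.29). Fewer samples entered where a library was left out, and for the other changes the cause was not tested.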
